A study of Mus musculus with 16 samples.

Results

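Direct transcriptional targets of the tumour suppressor p53 were followed in sorted mouse intestinal tumour cells. They were Cdkn1a, Mdm2, Ccng1, Zmat3, Eda2r, Trp53inp1, Phlda3, Bax, Perp and Sesn2, 10 of the 36528 genes in the tables. These were chosen by name for their place in the p53 pathway, with earlier results of these data known. All 10 were among the 18072 genes with enough counts to be tested. RNA was sequenced from 16 libraries in 4 groups of 4. The groups were GFP+ cells of AKVPSL tumours, GFP- cells of AKVPSL tumours, GFP+ cells of AKVPL tumours and GFP- cells of AKVPL tumours, with GFP reporting the stem cell gene Lgr5 according to the series' design. In the mouse model that goes by these letters, A stands for loss of Apc, V for the Villin-driven Cre that acts in intestinal epithelium, P for loss of Trp53, which encodes p53, S for loss of Smad4 and L for the Lgr5 reporter, which also carries the diphtheria toxin receptor. The labels give the letters without spelling them out, and K is not described here. P stands in both genotypes, as do A, K, V and L, so all 4 groups share these and no group is labelled as having an intact p53 gene. Cells other than epithelium keep their p53 gene in such a design. Their markers differed between the groups, with values given beside each comparison, so the groups can also differ in their share of cells with an intact p53 gene; the part of this in the results was not tested. The labels do not say which animals, tumours or clones gave the replicates, whether animals were pooled, or what else was gated on, so a p-value speaks of the spread from library to library, whose source may be technical. Every title names the colon, whereas the tissue entry reads small intestine in 15 libraries and colon in 1.

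p53 is a transcription factor that is kept scarce by the ubiquitin ligase Mdm2 and accumulates after DNA damage, oncogene activity or nutrient stress. Its targets halt the cell cycle, start apoptosis, adjust metabolism and, through Mdm2 itself, switch p53 off again. Most of these targets are also transcribed by p53-independent routes, among them growth factor, stress and differentiation signals, so their RNA is not a readout of p53 alone.

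The promoters of 7 of the 10 genes were found in the RefSeq promoter table (GRCm38.p6, 250 bases before to 50 after each transcription start), 8 promoters in all because Cdkn1a has 2. Zmat3, Trp53inp1 and Perp were not matched. p53 binds a pair of 10-base half-sites with CATG or a close variant at the centre of each. A match to the degenerate half-site, called the p53 decamer, was found in 4 of the 8 promoters, those of Bax, Ccng1 and Mdm2 and the first of Cdkn1a, whereas 8.36% of all 32851 promoters in the table held one. Both strands were searched. A stricter spelling, 2 centres at half-site distance (CATGNNNNNNCATG), was found in the first Cdkn1a promoter and in 0.712% of all promoters. It overlaps the second decamer there. The first Cdkn1a promoter is shown whole because Cdkn1a had the widest changes among the well-expressed genes below, and 30 bases around the match are shown for the other 3; capitals mark the decamers and, in Cdkn1a, the pair of centres.
Cdkn1a: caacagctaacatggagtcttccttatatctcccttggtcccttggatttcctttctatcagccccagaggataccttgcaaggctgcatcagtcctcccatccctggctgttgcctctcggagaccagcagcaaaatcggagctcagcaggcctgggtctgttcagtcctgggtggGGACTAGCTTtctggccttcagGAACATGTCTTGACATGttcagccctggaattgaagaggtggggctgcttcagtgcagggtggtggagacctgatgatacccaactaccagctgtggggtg
Bax: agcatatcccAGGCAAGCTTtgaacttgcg
Ccng1: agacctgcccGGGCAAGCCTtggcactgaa
Mdm2: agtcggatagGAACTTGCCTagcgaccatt
The Cdkn1a sequence is chr17:29090729-29091028 on the + strand. Its pair of centres begins 48 bases before the first start and 2838 bases before the second. The matches in the genes on the - strand lie 201 bases before the start of Bax (chr7:45467090-45467099), 185 before that of Ccng1 (chr11:40755462-40755471) and 186 before that of Mdm2 (chr10:117710935-117710944). A match of letters is a description, not a site or a cause. The 4 genes with a match in their promoter did not share 1 pattern in the values that follow: Mdm2 passed the test in 1 of the 4 comparisons between groups, Cdkn1a and Bax in 3 and Ccng1 in 4.

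The median library held 25.9 M counts in total (M, 1000000), the smallest 10.881 M and the largest 41.602 M. Lgr5, the gene under the reporter, averaged 270 ± 15.0 CPM (counts per 1000000, scaled as given in the methods) in AKVPSL GFP+ cells and 67.7 ± 17.8 CPM in AKVPSL GFP- cells, and 297 ± 40.0 CPM in AKVPL GFP+ cells and 65.7 ± 8.3 CPM in AKVPL GFP- cells (SD, n = 4 each). Trp53 itself averaged 29.6 ± 4.93 CPM in AKVPSL GFP+, 35.3 ± 8.54 CPM in AKVPSL GFP-, 36.4 ± 3.84 CPM in AKVPL GFP+ and 42.4 ± 10.2 CPM in AKVPL GFP- cells. It did not pass the test in any of the 4 comparisons between groups. Smad4 averaged 248 ± 26.2 CPM in AKVPSL GFP+ and 180 ± 26.1 CPM in AKVPSL GFP- cells, against 153 ± 4.24 CPM in AKVPL GFP+ and 139 ± 14.2 CPM in AKVPL GFP- cells, which is higher in the genotype labelled with its loss. Counts over a whole gene do not show whether part of it was deleted, so neither gene checks the labels, and the genotypes are given as labelled throughout. Epithelial genes were abundant in every group: 19 of them, led by the keratin Krt18, summed to between 10465.5 and 15328.2 CPM in each library. Cdx1, an intestinal transcription factor, was at or near 0 in every group, with 0 counts in all GFP- libraries of both genotypes and at most 0.0411 CPM in a GFP+ library.

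Per length of transcript, as the deposited RPKM values (reads scaled to transcript length and depth), the 10 genes spanned a wide range of levels. In AKVPSL GFP+ cells Perp was the most abundant at 60.2 RPKM, followed by Bax at 48.9, Mdm2 at 23.1 and Cdkn1a at 18.2 RPKM. The neighbours in that order stood apart in every library, except that Cdkn1a overlapped Trp53inp1 at 17.8 RPKM and Trp53inp1 overlapped Phlda3 at 14.4 RPKM. Cdkn1a moved through the order more than any other of the 10: it was the fourth in AKVPSL GFP+ at 18.2 ± 3.17 RPKM, the third in AKVPSL GFP- at 52.2 ± 15.1 RPKM, the most abundant in AKVPL GFP+ at 82.5 ± 38.6 RPKM, where it overlapped Perp, and again in AKVPL GFP- at 145 ± 35.2 RPKM, above every Bax value. Sesn2, Zmat3 and Eda2r held the last 3 places in every group, each apart from the next. Eda2r was near the limit of detection, between 0.00364 and 0.428 RPKM, and its counts were 1, 7, 4 and 5 in the AKVPSL GFP+ libraries. A pseudogene, Gm18111, lies within its span and has no values used here.

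**Figure D1:**
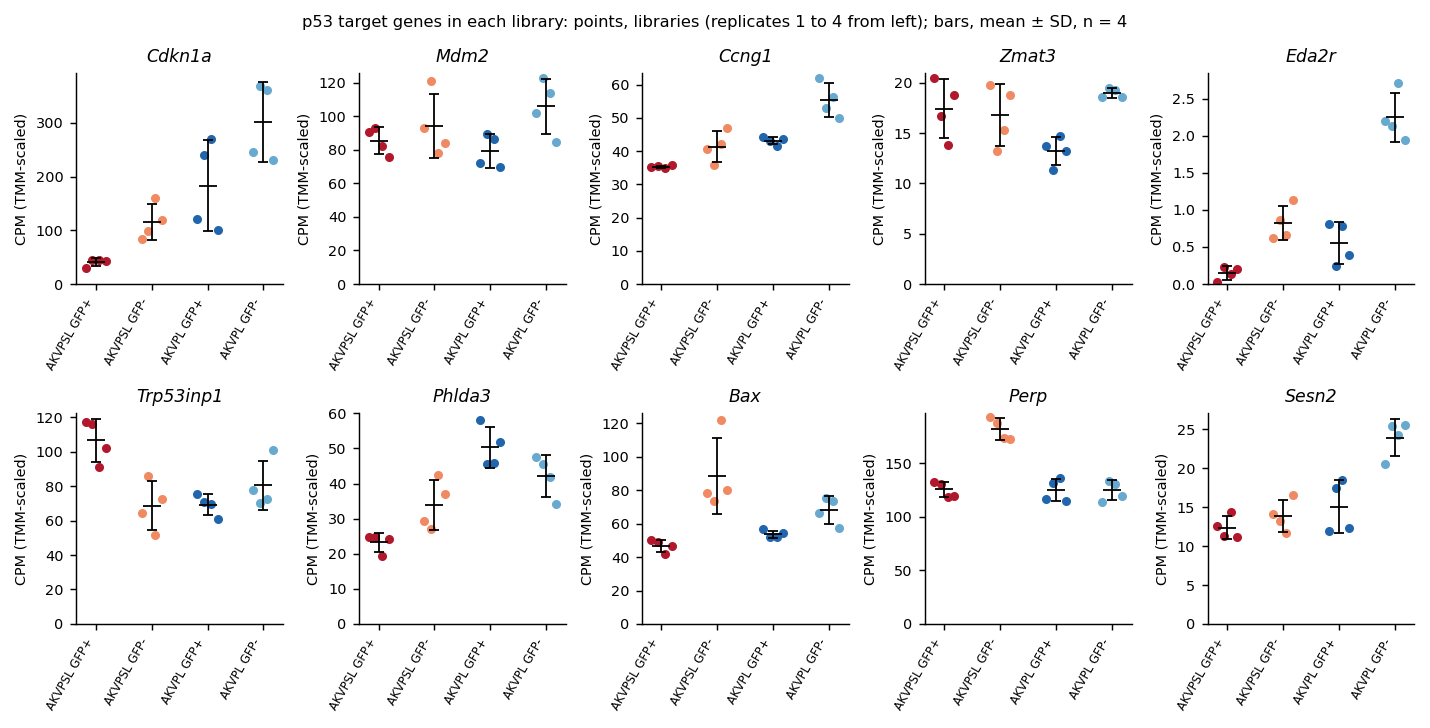
CPM of each of the 10 genes in every library (points, replicates 1 to 4 from the left) on axes that start at 0, with mean ± SD of the 4 libraries of a group (bars); groups from left to right are AKVPSL GFP+, AKVPSL GFP-, AKVPL GFP+ and AKVPL GFP-. Cdkn1a, Ccng1, Eda2r and Sesn2 have their lowest mean in AKVPSL GFP+ and their highest in AKVPL GFP-. Perp stands high in AKVPSL GFP- alone, and the Mdm2 groups overlap.

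The first comparison set GFP+ against GFP- cells within AKVPSL tumours. Of the 10 genes, 6 were lower in GFP+ cells, namely Cdkn1a, Ccng1, Eda2r, Phlda3, Bax and Perp, and Trp53inp1 was higher; Mdm2, Zmat3 and Sesn2 did not pass the test. Fold changes were log2 values of GFP+ over GFP- with the standard error of the fit, and the threshold was an adjusted p of 0.05 over all genes in edgeR's quasi-likelihood test. With 7 of 10 past it, 1 higher and 6 lower, the background was 47% of all genes past it, 22.4% higher and 24.6% lower. The groups did not overlap for the same 7 genes, against 39.1% of all genes. The median log2 change was -0.38 over the 10 genes and -0.01 over all genes.

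Cdkn1a encodes p21, which inhibits cyclin-dependent kinases, and changed most among the well-expressed genes. It had 30.3, 45.0, 44.8 and 42.5 CPM in AKVPSL GFP+ libraries (replicates 1 to 4), against 83.3, 99.1, 161 and 120 CPM in AKVPSL GFP- libraries. All 4 GFP+ values lay below all GFP- values, and the fit gave a log2 change of -1.51 ± 0.31 (adjusted p = 0.00139), 2.85-fold lower. Ccng1, an atypical cyclin that recruits a phosphatase to Mdm2, was steady at 35.2, 35.4, 34.9 and 35.7 CPM in GFP+ libraries, against 40.6, 35.9, 42.2 and 46.9 CPM in GFP- libraries. The groups were separated by a small gap, and the change of -0.23 ± 0.09 only just passed (adjusted p = 0.0434). That call was lost when any 1 of 8 libraries was left out: AKVPSL GFP+ replicate 1 or 3 (-0.25 each), AKVPSL GFP- replicate 3 (-0.22) or 4 (-0.17), AKVPL GFP+ replicate 2 or 3, or AKVPL GFP- replicate 2 or 3 (-0.23 each). It was lost too with epithelial scaling or no low-count filter (-0.25 each) and with only the groups compared (-0.23), 11 of 25 alternatives in all. Mdm2, which marks p53 for degradation, had 90.6, 93.1, 82.5 and 75.8 CPM in GFP+ libraries and 93.0, 121, 78.1 and 84.1 CPM in GFP- libraries; the groups overlapped, with a change of -0.14 ± 0.14 (adjusted p = 0.436).

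Of the genes tied to cell death, Bax, the pore former of the outer mitochondrial membrane, had 49.9, 48.8, 41.8 and 46.9 CPM in AKVPSL GFP+ libraries, against 78.0, 73.8, 122 and 79.8 CPM in AKVPSL GFP- libraries. Replicate 3 of GFP- stood well above the other 3, yet all GFP- values exceeded all GFP+ values, and the change was -0.92 ± 0.13 (adjusted p = 4.12e-05). Perp, a membrane protein of desmosomes that also promotes apoptosis, had 133, 131, 119 and 120 CPM in GFP+ libraries, against 193, 188, 174 and 173 CPM in GFP- libraries. Both groups were tight and separate, with a change of -0.53 ± 0.08 (adjusted p = 8.38e-05). Phlda3, which competes with the survival kinase Akt for membrane lipids, had 24.8, 24.9, 19.3 and 24.3 CPM in GFP+ libraries, against 29.3, 27.1, 42.5 and 36.9 CPM in GFP- libraries, again without overlap (-0.54 ± 0.14, adjusted p = 0.00484). Eda2r, a receptor of the tumour necrosis factor family that binds an ectodysplasin isoform, had 0.0248, 0.234, 0.133 and 0.206 CPM in GFP+ libraries, against 0.623, 0.859, 0.665 and 1.13 CPM in GFP- libraries. These rest on 17 counts in all GFP+ libraries and 80 in all GFP- libraries; the change was -2.49 ± 0.48 (adjusted p = 0.000461).

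Trp53inp1, a stress-induced protein with roles in autophagy and cell death, went the other way. It had 117, 116, 90.8 and 102 CPM in AKVPSL GFP+ libraries, against 64.3, 85.8, 51.7 and 72.5 CPM in AKVPSL GFP- libraries. All GFP+ values were above all GFP- values, and the change was 0.64 ± 0.14 (adjusted p = 0.00133). Zmat3, a zinc finger protein that binds RNA, had 20.5, 16.7, 13.8 and 18.8 CPM in GFP+ libraries and 19.8, 13.2, 15.3 and 18.8 CPM in GFP- libraries (0.06 ± 0.14, adjusted p = 0.773). Sesn2, a sestrin that restrains the growth kinase complex mTORC1, had 12.6, 11.3, 14.4 and 11.2 CPM in GFP+ libraries and 14.1, 13.2, 11.7 and 16.6 CPM in GFP- libraries (-0.17 ± 0.16, adjusted p = 0.394). Both pairs of groups overlapped.

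Markers of cells other than epithelium moved with the sort. In AKVPSL tumours 16 leukocyte genes summed to between 48.6 and 261 CPM in GFP+ libraries, with Cd3d at 0, against 724 to 3049.7 CPM in GFP- libraries, and 13 of the 14 tested were lower. The 12 fibroblast genes summed to between 263 and 1187.5 CPM in GFP+ libraries, against 2102.9 to 3237.7 CPM in GFP- libraries, and all 12 were lower. The 11 endothelial genes summed to between 143 and 187 CPM in GFP+ libraries, against 153 to 515 CPM in GFP- libraries, with 9 lower and 1 higher. Mast cell genes summed to between 2.97 and 9.21 CPM in GFP+ libraries, against 30.3 to 139 CPM in GFP- libraries, with 7 of 8 lower. The most abundant were Lyz2 and Cd74 among leukocyte genes and Col1a1 and Col3a1 among fibroblast genes. Among endothelial genes Vwf led, higher in GFP+ cells (97.1 CPM, against 50.1 CPM in GFP- cells), followed by Esam at 46.7 CPM in both. Kit led the mast cell genes in GFP+ cells (3.21 CPM) and Tpsb2 in GFP- cells (28.0 CPM). The part of these cells in the changes of the 10 genes was not tested, and in bulk RNA fewer cells of a type and less RNA per cell cannot be told apart.

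**Figure D2:**
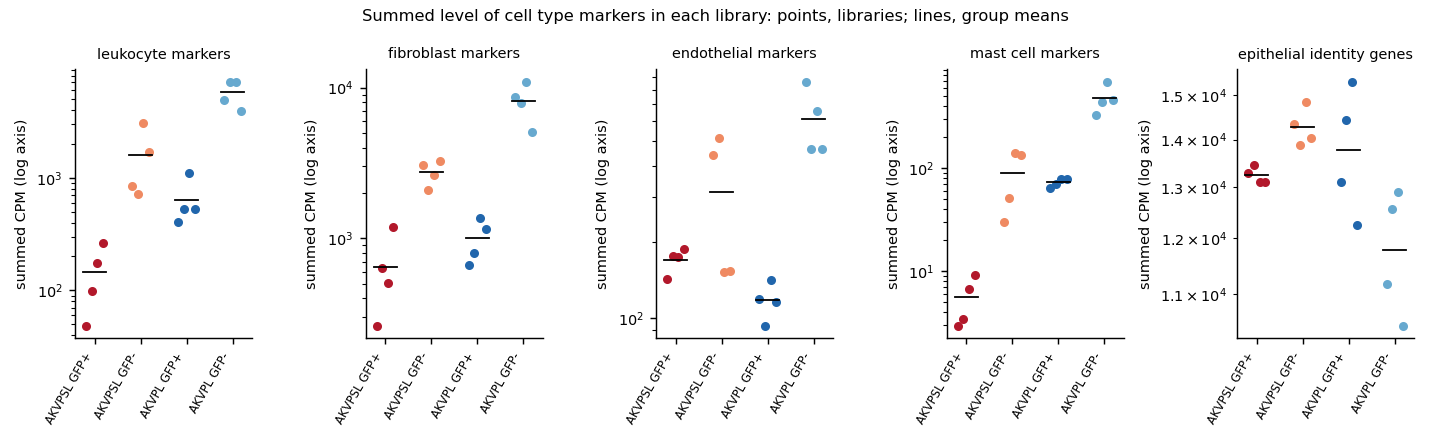
Summed CPM of the leukocyte, fibroblast, endothelial, mast cell and epithelial gene lists in every library (points) on log axes, with the mean of each group (lines), groups from left to right AKVPSL GFP+, AKVPSL GFP-, AKVPL GFP+ and AKVPL GFP-. The leukocyte and fibroblast sums are lower in GFP+ than in GFP- cells of both genotypes and highest in AKVPL GFP- cells, whereas all epithelial sums lie between 10465.5 and 15328.2 CPM.

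Within AKVPL tumours, 6 of 10 genes were lower in GFP+ than in GFP- cells and none was higher: Mdm2, Ccng1, Zmat3, Eda2r, Bax and Sesn2. The background was 39.1% of all genes past the threshold, 22.6% higher and 16.5% lower. Groups did not overlap for 5 of the 10 genes, against 41.2% of all genes. The median change was -0.39 over the 10 genes and 0.14 over all genes. The balance of all genes depended on the scaling here: 57.8% of calls were higher in GFP+ cells with TMM factors, 42.1% with size factors from DESeq2, 44.9% by total counts and 11.4% when scaled to epithelial genes, where the median of all genes was -0.21. Of the 10 genes none was called higher under any of these, and 9 were lower with epithelial genes. With TMM factors 8 of the 18 epithelial genes tested were themselves higher in AKVPL GFP+ cells and 0 lower (median 0.17). Scaling to them sets them level and so shifts all values down. Mdm2, Zmat3 and Sesn2 passed here and not in AKVPSL, while Cdkn1a, Trp53inp1, Phlda3 and Perp passed in AKVPSL and not here; the tests of these differences follow further on.

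Sesn2 had 12.0, 17.5, 18.5 and 12.3 CPM in AKVPL GFP+ libraries, against 20.5, 25.4, 24.3 and 25.6 CPM in AKVPL GFP- libraries. The groups did not overlap, and the change was -0.67 ± 0.16 (adjusted p = 0.00261). Zmat3 had 13.7, 11.3, 14.7 and 13.2 CPM in GFP+ libraries, against 18.6, 19.5, 19.3 and 18.6 CPM in GFP- libraries, also without overlap (-0.52 ± 0.14, adjusted p = 0.00792). A long noncoding RNA gene, 4930429B21Rik, lies within the span of Zmat3; it had at most 34 counts in a library, whereas Zmat3 had at least 220. Ccng1 had 44.4, 43.1, 41.6 and 43.7 CPM in GFP+ libraries, against 62.1, 53, 56.4 and 50.1 CPM in GFP- libraries. As in AKVPSL its GFP+ values hardly varied and lay below every GFP- value (-0.36 ± 0.09, adjusted p = 0.00422). Eda2r had 0.805, 0.247, 0.781 and 0.388 CPM in GFP+ libraries, against 2.20, 2.13, 2.71 and 1.95 CPM in GFP- libraries, from 63 counts in GFP+ and 199 in GFP- libraries. Every GFP- value was more than any GFP+ value (-1.99 ± 0.40, adjusted p = 0.000674).

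Bax had 56.5, 51.7, 51.9 and 54.3 CPM in AKVPL GFP+ libraries, against 66.5, 75.3, 73.7 and 57.1 CPM in AKVPL GFP- libraries. Replicate 4 of GFP- lay just above the highest GFP+ value, and the change was -0.35 ± 0.13 (adjusted p = 0.0464). With the replicate number as a block the change was -0.34 and no longer passed (adjusted p = 0.0671; 0.000366 to 0.128 over the alternatives). The call was also lost without any 1 of AKVPL GFP+ replicates 1 (-0.39), 2 or 3 (-0.33 each) or 4 (-0.35), or AKVPL GFP- replicates 1 (-0.38), 2 (-0.30) or 3 (-0.31). Mdm2 had 72.2, 89.7, 86.3 and 69.6 CPM in GFP+ libraries, against 102, 123, 114 and 84.6 CPM in GFP- libraries. Replicate 4 of GFP- lay below GFP+ replicates 2 and 3, but GFP+ was lower in every same-numbered pair (-0.42 ± 0.14, adjusted p = 0.0214). Its call was lost without AKVPL GFP+ replicate 1 (-0.39) or 4 (-0.36) or AKVPL GFP- replicate 2 (-0.34) or 3 (-0.38).

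Cdkn1a had 121, 241, 270 and 101 CPM in AKVPL GFP+ libraries, against 245, 369, 361 and 231 CPM in AKVPL GFP- libraries. Replicates 2 and 3 were high in both sorts and replicates 1 and 4 low in both, so that the groups overlapped although GFP+ was lower in 4 of 4 pairs. The change of -0.72 ± 0.31 did not pass (adjusted p = 0.0783), whereas with the replicate number as a block it was -0.81 and passed (adjusted p = 0.000369; 0.000369 to 0.183 over the alternatives). It passed as well without AKVPL GFP+ replicate 3 (-0.96), with epithelial scaling (-1.07), in DESeq2 (-0.81) and on log2(RPKM + 1) (-0.90) and log2(RPKM + 0.1) (-0.91), in all 6 of 25 alternatives. Within pairs the log2 difference of Cdkn1a was -1.01, -0.61, -0.42 and -1.20 in AKVPL and -1.46, -1.14, -1.85 and -1.50 in AKVPSL tumours. Same-numbered libraries of the 2 sorts deviated together in all 8 pairs, but AKVPSL replicates 3 and 4 resembled another number more, as given in the methods.

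Phlda3 had 58.1, 45.6, 45.9 and 51.7 CPM in AKVPL GFP+ libraries and 47.7, 45.5, 41.8 and 34.1 CPM in AKVPL GFP- libraries. GFP+ was the higher in 4 of 4 pairs, but the groups overlapped (0.25 ± 0.14, adjusted p = 0.174). Perp had 117, 132, 136 and 115 CPM in GFP+ libraries and 114, 134, 131 and 120 CPM in GFP- libraries, and the fit gave almost the same level in both (0.00 ± 0.08, adjusted p = 0.986); scaled to epithelial genes instead, it was lower in GFP+ cells at -0.34. Trp53inp1 had 75.6, 70.5, 69.5 and 60.8 CPM in GFP+ libraries and 77.6, 70.4, 72.5 and 101 CPM in GFP- libraries, where replicate 4 of GFP- was the highest and the rest overlapped (-0.21 ± 0.14, adjusted p = 0.243). With epithelial scaling (-0.58, adjusted p = 0.00937) or only the groups compared (-0.32) Trp53inp1 was lower in AKVPL GFP+ cells and passed. Marker sums of other cells were again lower in GFP+ libraries. Leukocyte genes summed to between 403 and 1100.3 CPM in AKVPL GFP+, against 3925.4 to 7128.8 CPM in AKVPL GFP- libraries, and 12 of 14 tested were lower. Fibroblast genes summed to between 665 and 1359.4 CPM in GFP+, against 5066.9 to 10979.7 CPM in GFP- libraries, and 11 of 12 were lower. All 11 endothelial genes and 7 of 8 mast cell genes were lower as well. Their part in these changes was not tested.

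**Figure D3:**
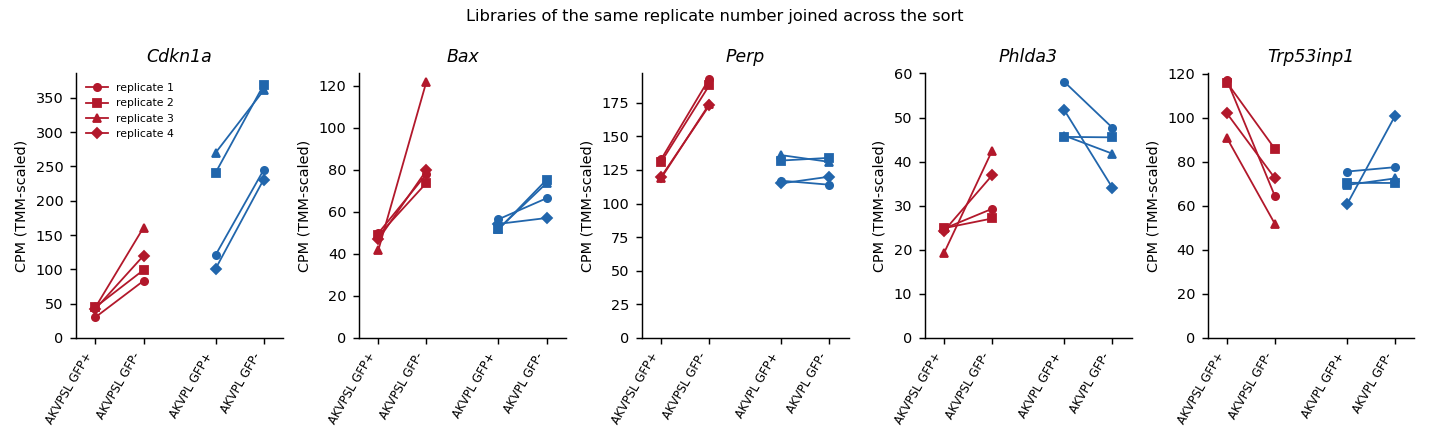
CPM of Cdkn1a, Bax, Perp, Phlda3 and Trp53inp1 on axes that start at 0, with same-numbered GFP+ and GFP- libraries joined by a line, AKVPSL left of AKVPL (marker shapes, replicates 1 to 4). Cdkn1a and Bax are lower in GFP+ in all pairs of both genotypes, and Perp is lower in GFP+ in AKVPSL pairs while its AKVPL lines are nearly level.

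The difference between the sort effects, AKVPSL minus AKVPL, was then tested directly. It passed for 4 of the 10 genes, 1 higher and 3 lower, against 20.7% of all genes past the threshold, 7.01% higher and 13.7% lower. Of all calls, 33.8% were higher with TMM factors, 49.2% with size factors from DESeq2, 44.2% by total counts and 81.8% when scaled to epithelial genes. In that last setting the 10 genes had 5 higher and 0 lower. With TMM factors the difference was lower for 9 of the 18 epithelial genes tested and higher for 0, so scaling to them shifts all differences up. Trp53inp1 differed by 0.85 ± 0.20 (adjusted p = 0.00633), since GFP+ was above GFP- in AKVPSL alone. Phlda3 differed by -0.79 ± 0.20 (adjusted p = 0.0107) and Perp by -0.53 ± 0.12 (adjusted p = 0.00469); scaled to epithelial genes these were -0.48 and -0.20 and neither passed. The Perp pairs were tight, with log2 differences of -0.54, -0.51, -0.54 and -0.52 in AKVPSL and 0.04, -0.02, 0.05 and -0.06 in AKVPL tumours. Bax differed by -0.57 ± 0.19 (adjusted p = 0.0402), and with a replicate block by -0.54, which did not pass (adjusted p = 0.0623; 0.0236 to 0.335 over the alternatives). The Bax call was lost under 17 of 24 alternatives, among them all 8 that kept every library; with epithelial scaling the value was -0.25. Without AKVPSL GFP- replicate 3, where Bax was highest, its difference was -0.37 and the call was lost. It was also lost without AKVPSL GFP+ replicate 3 (-0.52) or 4 (-0.58), AKVPL GFP+ replicate 1 (-0.55), 2 or 3 (-0.58 each) or 4 (-0.56), or AKVPL GFP- replicate 1 (-0.56) or 4 (-0.49).

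The other 6 genes did not pass with TMM factors, but 4 of them passed with epithelial scaling: Mdm2 (0.60, adjusted p = 0.0184), Ccng1 (0.45, adjusted p = 0.032), Zmat3 (0.91, adjusted p = 0.00572) and Sesn2 (0.84, adjusted p = 0.0154). Cdkn1a differed by -0.80 ± 0.43 (adjusted p = 0.208), but with the replicate block by -0.68 and past the threshold (adjusted p = 0.0194; 0.0194 to 0.419 over the alternatives). Zmat3 differed by 0.58 ± 0.20 (adjusted p = 0.0501), and by 0.59 with the block (adjusted p = 0.0185; 0.00572 to 0.104 over the alternatives). It also passed without AKVPSL GFP+ replicate 3 (0.67), AKVPSL GFP- replicate 1 (0.66) or 4 (0.64), or AKVPL GFP+ replicate 3 (0.64), and with size factors from DESeq2 (0.67), by total counts (0.65), in DESeq2 itself (0.67) and on both RPKM scales, in all 11 of 24 alternatives. Sesn2 differed by 0.50 ± 0.22 (adjusted p = 0.117), and passed also on log2(RPKM + 1) at 0.54. Mdm2 (0.29), Ccng1 (0.13) and Eda2r (-0.50) had adjusted p-values of 0.306, 0.499 and 0.59, so whether the Mdm2 and Ccng1 changes are told apart between genotypes depends on the scaling. The median difference was -0.19 over the 10 genes and -0.10 over all genes.

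Between genotypes, AKVPSL was set against AKVPL within GFP+ cells. Cdkn1a, Phlda3, Eda2r and Ccng1 were lower in AKVPSL, and Trp53inp1 and Zmat3 were higher. That made 6 of 10 genes past the threshold, 2 higher and 4 lower, where the background was 53% of all genes, 24.9% higher and 28.1% lower. Groups did not overlap for 6 of 10 genes, against 51.3% of all genes, and both shares are near the background. The median change was -0.24 over the 10 genes and -0.05 over all genes. These libraries also entered the sort comparisons, so the comparisons share samples.

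Cdkn1a averaged 40.7 ± 6.99 CPM in AKVPSL GFP+ cells and 183 ± 84.7 CPM in AKVPL GFP+ cells (SD, n = 4 each), 4.51-fold lower with a log2 change of -2.17 ± 0.32 (adjusted p = 4.95e-05). Every AKVPSL value was under every AKVPL value, although the AKVPL libraries themselves ranged from 101 to 270 CPM. Phlda3 averaged 23.3 ± 2.69 CPM in AKVPSL GFP+ and 50.3 ± 5.89 CPM in AKVPL GFP+ cells, 2.16-fold lower and the smallest adjusted p of the 10 (-1.11 ± 0.14, adjusted p = 3.28e-06). Eda2r averaged 0.150 ± 0.0934 CPM in AKVPSL GFP+ and 0.555 ± 0.281 CPM in AKVPL GFP+ cells (-1.96 ± 0.50, adjusted p = 0.00272), from 17 counts in AKVPSL and 63 in AKVPL libraries. Ccng1 averaged 35.3 ± 0.342 CPM in AKVPSL GFP+ and 43.2 ± 1.22 CPM in AKVPL GFP+ cells, a small change between tight groups (-0.29 ± 0.09, adjusted p = 0.0109).

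Trp53inp1 averaged 107 ± 12.5 CPM in AKVPSL GFP+ and 69.1 ± 6.13 CPM in AKVPL GFP+ cells, without overlap (0.62 ± 0.14, adjusted p = 0.00108). Zmat3 averaged 17.5 ± 2.87 CPM in AKVPSL GFP+ and 13.2 ± 1.45 CPM in AKVPL GFP+ cells, with overlapping libraries (0.40 ± 0.14, adjusted p = 0.0249). That Zmat3 call was lost without AKVPSL GFP+ replicate 1 (0.29) or 4 (0.34) or AKVPL GFP+ replicate 1 (0.39) or 2 (0.33), by total counts (0.36), and on log2(RPKM + 1) (0.25) and log2(RPKM + 0.1) (0.37). The remaining 4 genes did not pass. Bax averaged 46.9 ± 3.57 CPM in AKVPSL GFP+ and 53.6 ± 2.25 CPM in AKVPL GFP+ cells; all AKVPSL values were lower, but the change of -0.19 ± 0.13 was not called (adjusted p = 0.234). Perp averaged 126 ± 7.21 CPM in AKVPSL GFP+ and 125 ± 10.5 CPM in AKVPL GFP+ cells (0.01 ± 0.08, adjusted p = 0.928). Mdm2 (0.11 ± 0.14, adjusted p = 0.537) and Sesn2 (-0.29 ± 0.16, adjusted p = 0.132) overlapped; Sesn2 passed without AKVPL GFP+ replicate 1 (-0.42). Leukocyte genes, with the sums given above, were lower in AKVPSL GFP+ cells for 11 of 14, but for 7 without AKVPSL GFP+ replicate 2 and 6 without AKVPL GFP+ replicate 3. Fibroblast genes were lower for 2 of 12, but for 8 without AKVPSL GFP+ replicate 4 and 4 without AKVPL GFP+ replicate 1. Mast cell genes were lower for 2 of 8, or 1 of 8 without any 1 of 8 libraries (AKVPSL GFP+ replicates 1 and 2, AKVPSL GFP- replicates 2 and 4, AKVPL GFP+ replicates 3 and 4, AKVPL GFP- replicates 2 and 4). In AKVPL GFP+ cells the mast cell sum averaged 72.8 CPM, of which Kit was 66.9 CPM, with Mcpt4 next at 1.44 CPM. Kit averaged 3.21 CPM in AKVPSL GFP+ cells. Of 11 endothelial genes 3 were lower and 2 higher. The part of these cells was not tested.

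**Figure D4:**
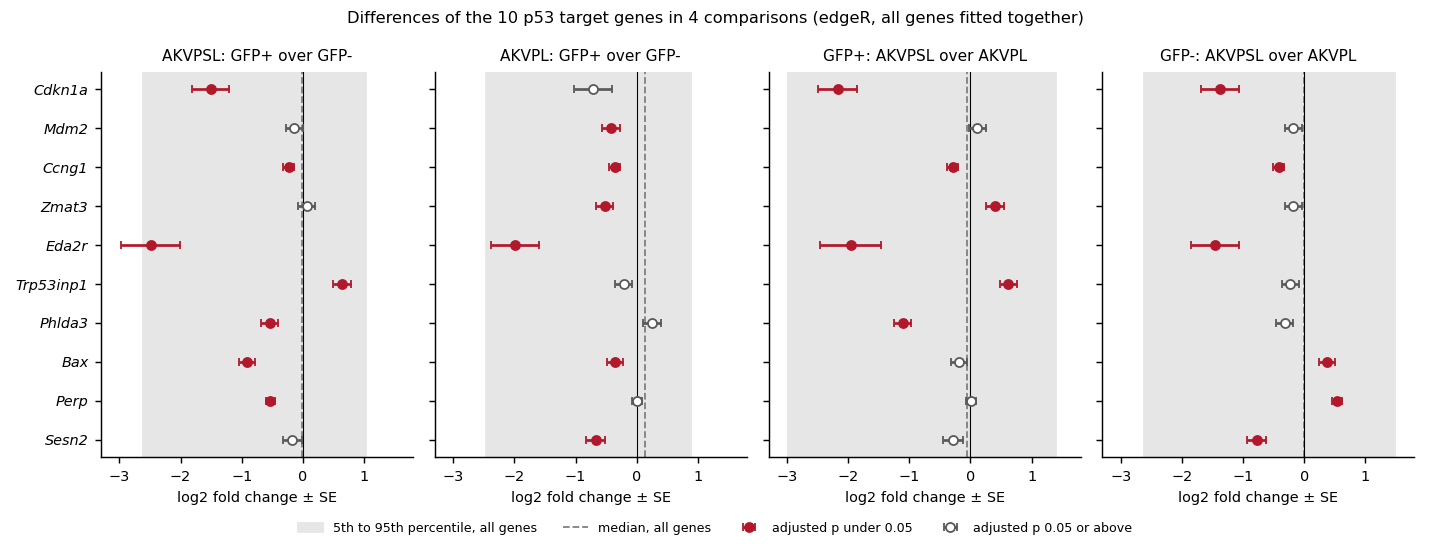
Log2 fold change ± SE of the 10 genes in the 4 comparisons between groups, filled red points marking an adjusted p under 0.05 in edgeR and open points the rest; the grey band spans the 5th to 95th percentile of all genes and the dashed line is their median. Cdkn1a, Ccng1, Eda2r and Sesn2 lie below 0 in all 4 panels. Cdkn1a does not pass the threshold in the AKVPL sort, nor Sesn2 in the AKVPSL sort or between genotypes in GFP+ cells. Trp53inp1 lies above 0 in AKVPSL GFP+ cells in both comparisons they enter.

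Within GFP- cells 6 of 10 genes again differed between AKVPSL and AKVPL tumours, 4 lower in AKVPSL (Cdkn1a, Sesn2, Eda2r and Ccng1) and 2 higher (Perp and Bax). The background was 62.7% of all genes, 32% higher and 30.7% lower. Groups did not overlap for 5 of 10 genes, against 53.2% of all genes, so these counts are near the background too. Of all calls, 51.1% were higher in AKVPSL with TMM factors and 29.5% with epithelial genes, where the median of all genes was -0.33. There 1 of the 10 genes was higher and 8 lower. With TMM factors 10 of the 18 epithelial genes tested were themselves higher in AKVPSL GFP- cells and 1 lower, so this scaling shifts all values down. The median change was -0.27 over the 10 genes and 0.00 over all genes.

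Cdkn1a averaged 116 ± 33.8 CPM in AKVPSL GFP- and 301 ± 73.7 CPM in AKVPL GFP- cells (SD, n = 4 each), 2.6-fold lower and without overlap (-1.38 ± 0.31, adjusted p = 0.00145). Sesn2 averaged 13.9 ± 2.08 CPM in AKVPSL GFP- and 24.0 ± 2.36 CPM in AKVPL GFP- cells, where every AKVPL GFP- library was above all other libraries of the study (-0.78 ± 0.16, adjusted p = 0.000296). Ccng1 averaged 41.4 ± 4.57 CPM in AKVPSL GFP- and 55.4 ± 5.17 CPM in AKVPL GFP- cells (-0.42 ± 0.09, adjusted p = 0.000561). Eda2r averaged 0.819 ± 0.231 CPM in AKVPSL GFP- and 2.25 ± 0.325 CPM in AKVPL GFP- cells (-1.46 ± 0.39, adjusted p = 0.00311). All of these groups were separate.

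Perp averaged 182 ± 10.2 CPM in AKVPSL GFP- and 125 ± 9.23 CPM in AKVPL GFP- cells, and every AKVPSL GFP- library was above all other libraries of the study (0.54 ± 0.08, adjusted p = 2.13e-05). With libraries scaled to epithelial genes the Perp change was 0.21 and still passed. Bax averaged 88.4 ± 22.6 CPM in AKVPSL GFP- and 68.1 ± 8.29 CPM in AKVPL GFP- cells, with overlap (0.37 ± 0.13, adjusted p = 0.0208). Without AKVPSL GFP- replicate 3 the Bax change was 0.18 and did not pass, nor did it without AKVPL GFP- replicate 1 (0.34) or 4 (0.30) or with epithelial scaling (0.04), and the call was lost under 10 of 25 alternatives. Phlda3 averaged 34.0 ± 7.07 CPM in AKVPSL GFP- and 42.3 ± 5.98 CPM in AKVPL GFP- cells and missed the threshold (-0.32 ± 0.14, adjusted p = 0.0599). It passed without any 1 of the 4 AKVPSL GFP+ libraries or without AKVPL GFP+ replicate 1 (-0.34 each), none of which is in the groups compared, and without AKVPSL GFP- replicate 3 (-0.44) or AKVPL GFP- replicate 4 (-0.41). Mdm2 (-0.18 ± 0.14, adjusted p = 0.264), Zmat3 (-0.18 ± 0.14, adjusted p = 0.291) and Trp53inp1 (-0.23 ± 0.14, adjusted p = 0.173) did not pass. Without AKVPSL GFP- replicate 2, Mdm2 (-0.32) and Trp53inp1 (-0.35) did. Fibroblast genes were lower in AKVPSL GFP- cells for 10 of 12 and mast cell genes for 7 of 8. Leukocyte genes were lower for 9 of 14, but for 5 without AKVPSL GFP- replicate 2 or 4 and 4 without AKVPSL GFP- replicate 1 or AKVPL GFP- replicate 2 or 3. Endothelial genes were lower for 4 of 11 with 1 higher, but 3 or fewer passed without AKVPSL GFP+ replicate 2, 3 or 4, AKVPSL GFP- replicate 4, AKVPL GFP+ replicate 4, or AKVPL GFP- replicate 1 or 3. Their part in these changes was not tested.

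Across the 4 comparisons between groups, Ccng1 and Eda2r passed in all 4, always lower in GFP+ and in AKVPSL, Cdkn1a and Bax in 3, Mdm2 in 1 and each of the other 5 in 2. The resemblance of patterns was measured as the root mean square difference of log2 CPM, centred on each gene's mean, over the 16 libraries and 12312 genes. Nearest to Cdkn1a were Pim1 at 0.24, Mmp23 at 0.28 and Pxdc1 at 0.29, against a median gene at 1.23. Nearest to Eda2r were Plxnd1 and Fhl1 at 0.45 and Fstl1 at 0.46 (median 1.44), to Ccng1 Snap23 and Tbc1d10b at 0.10 and Chsy1 at 0.12 (median 0.49), and to Bax Eif1b and Arpc5 at 0.09 and Ccdc12 at 0.10 (median 0.57). Within the 10, Ccng1 and Sesn2 (0.27) and Bax and Perp (0.28) were each other's nearest. So were Cdkn1a and Eda2r, which at 0.74 were farther apart than Cdkn1a was from Pim1. A gene at the same level in all libraries would lie 0.25 from Ccng1 and 0.25 from Perp, nearer than Sesn2 and Bax did. It would lie 0.41 from Sesn2, 0.38 from Bax, 1.12 from Cdkn1a and 1.33 from Eda2r.

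A list of 32 other p53 targets, all of which could be tested, moved in both directions. In AKVPSL 3 were higher and 11 lower in GFP+ than in GFP- cells, with a median change of -0.03; that is 14 of 32 past the threshold, against 47% of all genes. The lower ones were led by the metastasis suppressor Cd82 (109 CPM in AKVPSL GFP+ cells, against 254 CPM in AKVPSL GFP- cells, -1.22 ± 0.11, adjusted p = 6.45e-07), the DNA damage gene Gadd45a (-0.92 ± 0.16, adjusted p = 0.000161), Rps27l (-0.73 ± 0.14, adjusted p = 0.000384), which encodes a ribosomal protein variant, and the cell cycle checkpoint gene Sfn (-0.96 ± 0.20, adjusted p = 0.000894). In AKVPL 6 were higher and 6 lower, against 39.1% of all genes past the threshold, with a median of 0.02, but 0 were higher and 11 lower with libraries scaled to epithelial genes. Adenylate kinase Ak1 was lower in AKVPL GFP+ cells (4.76 CPM, against 37.4 CPM in GFP- cells, -2.98 ± 0.21, adjusted p = 1.88e-08), as were Cd82 (-0.55 ± 0.11) and the ferrireductase gene Steap3 (-1.93 ± 0.39), while the DNA repair gene Ddb2 was higher (0.66 ± 0.13; 0.33 and not past the threshold with epithelial scaling). The sort effects differed between genotypes for 9 of the 32, against 20.7% of all genes, 2 higher and 7 lower (4 and 10 with the replicate block, 6 and 2 with epithelial scaling, 1 and 4 without AKVPSL GFP+ replicate 4), among them Ak1 (2.22 ± 0.28), Sfn (-1.29 ± 0.28), Gadd45a (-0.91 ± 0.22) and Cd82 (-0.67 ± 0.16; -0.35 and not past the threshold with epithelial scaling). Between genotypes, 6 were higher and 8 lower in AKVPSL GFP+ cells (median -0.07), and 11 were higher and 9 lower in AKVPSL GFP- cells (median 0.05; 3 and 15 with epithelial scaling). All genes past the threshold were 53% in GFP+ and 62.7% in GFP- cells, so these counts of 14 and 20 of 32 are near or below the background. The caspase-activating gene Apaf1 was lower in AKVPSL in both, at -1.19 ± 0.12 in GFP+ and -1.29 ± 0.13 in GFP- cells. Among GFP+ cells the stress cytokine Gdf15 was higher in AKVPSL (39.7 CPM, against 7.31 CPM in AKVPL, 2.44 ± 0.35), and the carbonyl reductase gene Dcxr (-1.16 ± 0.16) and the death domain gene Pidd1 (-0.97 ± 0.17) were lower. Among GFP- cells Cd82 (0.98 ± 0.11) and the glycolysis regulator Tigar (0.70 ± 0.13) were higher and Ak1 (-1.17 ± 0.19) was lower.

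Genes that control p53, together with Trp53 itself and its relatives Trp63 and Trp73, made a list of 16, of which 15 had enough counts. In AKVPSL tumours 7 were higher and 1 lower in GFP+ than in GFP- cells, with 4 higher without AKVPSL GFP+ replicate 3 or AKVPSL GFP- replicate 1. The background was 47% of all genes past the threshold, 22.4% higher and 24.6% lower. In AKVPL tumours 7 were higher and 0 lower in GFP+ cells, or 3 and 3 with epithelial scaling. There the background was 39.1% of all genes, 22.6% higher and 16.5% lower. The DNA damage kinases Atm (1.00 ± 0.16 in AKVPSL and 0.91 ± 0.16 in AKVPL), Atr (0.42 ± 0.13 in AKVPSL and 0.69 ± 0.13 in AKVPL) and Chek2 (0.60 ± 0.15 in AKVPSL and 1.25 ± 0.15 in AKVPL) were higher in both, and so was the DNA break repair gene Trp53bp1 (0.51 ± 0.12 in AKVPSL and 0.39 ± 0.12 in AKVPL), although with epithelial scaling Atr was at 0.33 and Trp53bp1 at 0.04 in AKVPL and neither passed. Trp53bp1 in AKVPL also missed the threshold with size factors from DESeq2 (0.29) and by total counts (0.32). Cdkn2a, whose Arf product inhibits Mdm2 and whose other product is the kinase inhibitor p16, reversed with genotype. It averaged 302 CPM in AKVPSL GFP+ and 533 CPM in AKVPSL GFP- cells (-0.82 ± 0.12, adjusted p = 3.45e-05), but 258 CPM in AKVPL GFP+ and 144 CPM in AKVPL GFP- cells (0.84 ± 0.12, adjusted p = 2.52e-05), and the sort effects differed by -1.66 ± 0.17 (adjusted p = 3.37e-06). Gene-level counts do not separate its 2 products. Cdkn2a was higher in AKVPSL than in AKVPL GFP- cells (1.89 ± 0.12, adjusted p = 3.43e-10) and did not pass in GFP+ cells (0.23, adjusted p = 0.106). Mdm4, the relative of Mdm2 that blocks p53 activity, was higher in AKVPSL GFP+ than GFP- cells (0.41 ± 0.13, adjusted p = 0.0129; 0.39 and not past the threshold with epithelial scaling) and lower in AKVPSL than in AKVPL GFP- cells (-0.34 ± 0.13, adjusted p = 0.0235). Trp63, a p53 relative that can bind the same sites, had 3 counts in all AKVPSL GFP+ libraries, against 245 in AKVPL GFP+ libraries, a ratio 94.9-fold lower per depth with a 95% exact counting interval of 32.1 to 463. In GFP- cells it had 4 counts in AKVPSL libraries, against 148 in AKVPL libraries, 44.8-fold lower (17.1 to 167); these intervals cover counting error only. In the genotype comparisons 2 of the 15 were higher and 2 lower in AKVPSL GFP+ cells, and 5 were higher and 5 lower in AKVPSL GFP- cells (3 and 9 with epithelial scaling). All genes past the threshold were 53% in GFP+ and 62.7% in GFP- cells, so these counts are near or below the background. The ubiquitin ligase gene Rchy1 was higher in AKVPSL in both, at 0.85 ± 0.11 in GFP+ and 0.78 ± 0.11 in GFP- cells, as was the acetyltransferase gene Kat5, at 0.47 ± 0.08 in GFP+ and 0.53 ± 0.08 in GFP- cells (0.19 and not past the threshold with epithelial scaling). Daxx, whose protein binds Mdm2, was lower in AKVPSL GFP+ cells at -0.34 ± 0.08.

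The last list held 14 cell cycle genes that p53 represses through p21 and the DREAM complex. In AKVPSL tumours 6 of 14 were higher in GFP+ than in GFP- cells and none lower (median 0.40), led by Top2a (253 CPM in AKVPSL GFP+ cells, against 128 CPM in AKVPSL GFP- cells, 0.98 ± 0.17, adjusted p = 0.000199). In AKVPL tumours all 14 were higher in GFP+ cells (median 1.36), among them Cdc20 (1.27 ± 0.13), Kif23 (1.45 ± 0.15) and Top2a (1.64 ± 0.17). The background in AKVPSL was 47% of all genes past the threshold, 22.4% higher and 24.6% lower. In AKVPL it was 39.1%, 22.6% higher and 16.5% lower. The sort effects differed for 9 of 14, all smaller in AKVPSL (median -0.96), against 20.7% of all genes, 7.01% higher and 13.7% lower. Of the 14, 5 passed with epithelial scaling, and 14 with the replicate block or without AKVPSL GFP- replicate 3. In AKVPSL against AKVPL, 5 were higher and 1 lower in GFP+ cells (median 0.39), and 13 were higher and none lower in GFP- cells (median 1.41). Ccnb2 had 62.0 CPM in AKVPSL GFP- and 20.6 CPM in AKVPL GFP- cells (1.58 ± 0.13, adjusted p = 1.21e-08). Of all genes 53% passed in GFP+ cells, 24.9% higher and 28.1% lower, and 62.7% in GFP- cells, 32% higher and 30.7% lower. AKVPL GFP- cells had the highest mean Cdkn1a and the lowest mean Ccnb2, Cdc20, Birc5 and Top2a of the 4 groups. The leukocyte and fibroblast sums were highest in the same group, and their part in this was not tested. AKVPL GFP+ cells had more Cdkn1a on average than AKVPSL GFP- cells (183 against 116 CPM). The mean sum of the 14 genes was also higher there (946 against 786 CPM), both with overlapping libraries. Top2a was higher in AKVPL GFP+ than in AKVPSL GFP- cells too (242 against 128 CPM), whereas Ccnb2, Cdc20 and Birc5 were lower.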

How the data were processed

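RNA of 16 libraries was sequenced after flow sorting, and groups were taken from the sample titles. GSNAP as aligner and GRCm38 as build come from the submitters' processing notes; for versions, counting tool and strand setting the sources used here give nothing. Per the file headers, the deposited counts are reads aligned uniquely to a gene model, and the deposited RPKM values were adjusted by the authors with a size factor. Symbols and positions came from a RefSeq gene table that matched 31049 of 36528 Gene IDs (85.0%); unmatched IDs stayed in library sizes and tests.

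The analysis of counts used edgeR 4.0.16 (R 4.3.3): filterByExpr by group, TMM factors (0.936 to 1.086), and 1 model of group means fitted to the 16 libraries, with robust estimation and 12 residual degrees of freedom. Each comparison was a two-sided quasi-likelihood F test, its p-values adjusted after Benjamini and Hochberg across the 18072 genes; the threshold was 0.05. CPM are TMM-scaled counts per 1000000. The SE of a log2 change was calculated back from its F statistic. The procedure was tested on simulated data. A limit on false calls in each simulated comparison, set first, was exceeded for the genotype in GFP- cells. It was then replaced by a limit on false calls pooled over the comparisons, which was met but was looser than the threshold of 0.05. Calls near the threshold for the genotype in GFP- cells are the less certain for it. The simulation changed few genes, in 1 group at a time, so it does not check calls where many genes differ, as between these groups. Depth per library, 10.881 to 41.602 M, sets the counting error of low genes such as Eda2r.

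The 10 genes and the lists beside them were chosen with earlier results of these data known. All 10 are named in every comparison; of the other p53 targets and the p53 control genes up to 4 and of the cell cycle genes up to 3 with the smallest adjusted p, with Trp53, Cdkn2a, Mdm4 and Trp63 always. Lgr5 and Smad4 are given beside the labels, and the cell cycle genes of the last paragraph's group means were chosen after their values were seen. The letter K of the genotypes is not described here. Lists are described by counts and medians, with no test of the list. Libraries of a group were compared first: in the 24 pairs, chi-square per degree of freedom over genes was 9.05 to 73.58, far from sampling noise. They are therefore not repeat runs of a single library, but separate preparations from the same tumour could differ as much. The fit took each library as its own sample, which these values cannot check.

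Replicate numbers in the titles were checked for pairing. Deviations from the group means of same-numbered GFP+ and GFP- libraries correlated in all 8 pairs (r = 0.125 to 0.547 across genes). The main fit held group means only and did not use this pairing, which entered only as the replicate block among the alternatives. Of the 8, 6 correlated best with their own number; AKVPSL replicates 3 (0.125, against 0.548 with another number) and 4 (0.334, against 0.464) did not. For this reason calls that turn on the block are uncertain in AKVPSL, and a blocked value stands beside each sort result whose call it changes. Alternatives were DESeq2 size factors, library totals, scaling to 18 epithelial genes, no low-count filter, DESeq2 1.42.0, only the groups compared, the replicate block, limma 3.58.1 on log2(RPKM + 1) and log2(RPKM + 0.1), and leaving out each library.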

Additional observations from a re-analysis of the deposited data

Results flagged for a closer look

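In groups of 4, a library was singled out where its gap to the nearest other took most of the group's range (past Dixon's 95% critical value); chance singles out about 1 in 20 groups, and 40 groups of the 10 genes were looked at. Cdkn1a was lowest by such a gap in AKVPSL GFP+ replicate 1, at 30.3 CPM, where the other 3 had 42.5 to 45.0 CPM. Phlda3 was lowest in AKVPSL GFP+ replicate 3, at 19.3 CPM, where the others had 24.3 to 24.9 CPM. Bax was highest in AKVPSL GFP- replicate 3, at 122 CPM, where the others had 73.8 to 79.8 CPM.

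A further 4 results were singled out because the GFP+ against GFP- change differed between genotypes by a test of the difference, AKVPSL minus AKVPL in log2 units: Trp53inp1 by 0.85, Phlda3 by -0.79, Bax by -0.57 and Perp by -0.53 (edgeR, adjusted p = 0.00633, 0.0107, 0.0402 and 0.00469). GFP+ was above GFP- in 4 of 4 AKVPSL pairs for Trp53inp1 and below it in 4 of 4 AKVPSL pairs for the other 3. The Bax difference did not pass under 17 of 24 alternatives, at -0.37 without the library named above and at -0.25 with epithelial scaling.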

How the results depend on the processing

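Of 50 values of the 10 genes, 29 were past the threshold, and 19 of these stayed past it under all alternatives (25, or 24 for the difference of sort effects); of the 21 others, 7 never passed. The number of genes past the threshold among the 10 stayed within 1.5 times its value in each comparison: 6 to 7 for the sort in AKVPSL when 1 library was left out, 4 to 6 for the sort in AKVPL, 5 to 6 and 5 to 8 for the genotypes in GFP+ and GFP- cells, and 3 to 5 for the difference. Scaling to epithelial genes reversed Perp in the AKVPL sort to -0.34, and on log2(RPKM + 1) the Eda2r difference of sort effects reversed to 0.19, a scale on which so low a gene is compressed; it was also above 0, at 0.49 and not past the threshold, on log2(RPKM + 0.1). The scale log2(RPKM + 1) also took the Eda2r genotype change in GFP+ cells to -0.08, not past the threshold. Without the low-count filter the Ccng1 genotype change in GFP+ cells was -0.27 and not past it. Scaled to epithelial genes, Mdm2 (-0.50), Zmat3 (-0.52) and Trp53inp1 (-0.58) passed for the genotype in GFP- cells, whereas Bax (0.04) did not. Phlda3 in that comparison, just short of the threshold, passed under 14 of 25 alternatives.

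The replicate block changed no call between sorts beside those given with the results; for the sort in AKVPSL it left 7 of the 10 genes past the threshold. Between genotypes same-numbered libraries correlated unevenly (r = -0.136 to 0.413 across genes), and some but not all correlated best with their own number. There the block left 6 of 10 past the threshold in both GFP+ and GFP- cells. Depth limits Eda2r, with 17 counts over all AKVPSL GFP+ libraries.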
